A study of Rattus norvegicus with 21 samples.

Results

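Phenylephrine (PE), an agonist of α1-adrenergic receptors, lowered a small set of genes in both control arms of this study of the transcription factor KLF2 in neonatal rat ventricular myocytes (NRVMs), which are heart muscle cells cultured from newborn rats. A gene belonged to the set when its mean was at least 10 CPM (counts divided by the library total, times 1000000) without PE in both controls and its level with PE, after adding 1 CPM to each mean, was at most 0.5 of that without PE in both. Of 30560 gene IDs, 9091 reached 10 CPM in both controls without PE. Of these, 151 met the ratio in siNeg cells, 220 met it in Ad-GFP cells, and the 96 that met it in both are the members described here.

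The knockdown experiment had 4 groups of 2 RNA sequencing libraries. These were siNeg, a negative control small interfering RNA, and siKlf2, which targets Klf2, each without PE and with PE at a labelled dose of 100 µM for 36 h, starting 12 h after transfection. The overexpression experiment had 4 groups of 3 libraries. Its cells were given an adenovirus with green fluorescent protein (Ad-GFP) or with Klf2 (Ad-Klf2) for 24 h, after a first 12 h with or without PE. The groups with PE are labelled with 36 h of PE here as well. The dose label stands on all libraries, including those at 0 h, so the titles were taken to say which received PE. Nothing in the labels states that replicates are independent cell preparations, so a p-value here reflects only library-to-library spread, possibly technical.

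PE acts through Gq-coupled receptors that raise intracellular calcium and activate protein kinase C, and in cultured myocytes it is a standard stimulus for hypertrophic growth, in which cells enlarge and shift their gene program. KLF2 is a zinc finger factor that binds GC-rich and CACCC-type DNA and is best known from endothelial cells, where blood flow induces it. The question addressed was how genes that PE lowers in control cells behave when KLF2 is lowered or raised.

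The knockdown libraries held 181101876 to 224082309 counts each and the overexpression libraries 32693762 to 76138723. All 96 members were detected in every library. The lowest count of any member was 370 in the knockdown libraries and 8 in the others, and 1 count in a library of Ad-Klf2 with PE was the only one under 10. The 3 Ad-GFP libraries without PE stood apart, with correlations among themselves of 0.987 to 0.988 in log2(CPM + 1), against 0.994 to 0.998 within the other overexpression groups and 0.998 to 0.999 within the knockdown groups. Leaving out 1 of them at a time gave 90 to 104 members, of which 86 to 95 were among the 96. The files list Ensembl IDs without symbols, so members are described here by level and response, 4 of them are followed by ID, and the levels of Klf2 itself and of cell type markers were not analysed.

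The following values chose the members and are given as a description. In siNeg the members had a median level of 33.3 CPM without PE (range 10.5 to 849.9) and 12.7 CPM with PE (range 3.61 to 384). In Ad-GFP the median was 43.6 CPM without PE (range 11.2 to 2566) and 16.9 CPM with PE (range 3.79 to 998). The median ratio of PE to no PE was 0.425 in siNeg, with a lowest value of 0.156, and 0.391 in Ad-GFP, with a lowest value of 0.117. Ratios of at most 0.25 were reached by 10 members in siNeg and by 6 in Ad-GFP, so most members were lowered by a moderate amount. Members just inside the limit had larger ratios of 0.49966, 0.49941 and 0.49938, and genes just outside it had 0.50111, 0.50168 and 0.50228. A further 170 genes had a larger ratio between 0.5 and 0.6, so the limit cuts through a continuous range. Levels without PE in siNeg and Ad-GFP were similarly ordered, with a Spearman correlation of 0.848 over the 96 members, which share the library of each group.

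The median level over the 96 members was nearly the same in the libraries of a group. It was 33.6 CPM in both siNeg libraries and 12.5 CPM in both siNeg libraries with PE, against 24.7 and 26.1 CPM in siKlf2 and 7.38 and 7.62 CPM in siKlf2 with PE. In the overexpression experiment it was 43.3, 44.3 and 43.7 CPM in Ad-GFP and 16.5, 16.8 and 16.8 CPM in Ad-GFP with PE. It was 29.9, 27.6 and 29.1 CPM in Ad-Klf2 and 11.3, 10 and 10.4 CPM in Ad-Klf2 with PE. The typical member was thus lowest in siKlf2 with PE in the knockdown experiment and in Ad-Klf2 with PE in the overexpression experiment. By library totals, these were also the lowest groups for 58.9% and 53.7% of the 9091 genes with 10 CPM or more. The members were spread over a wider relative range in Ad-Klf2 with PE. There the upper quartile of the members' means was 12.7 times the lower (2.59 and 32.9 CPM), against 2.41 to 4.53 times in the other 7 groups, of which the controls were limited by the rule. In bulk samples, less RNA per cell and fewer cells of a type cannot be told apart.

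**Figure D1:**
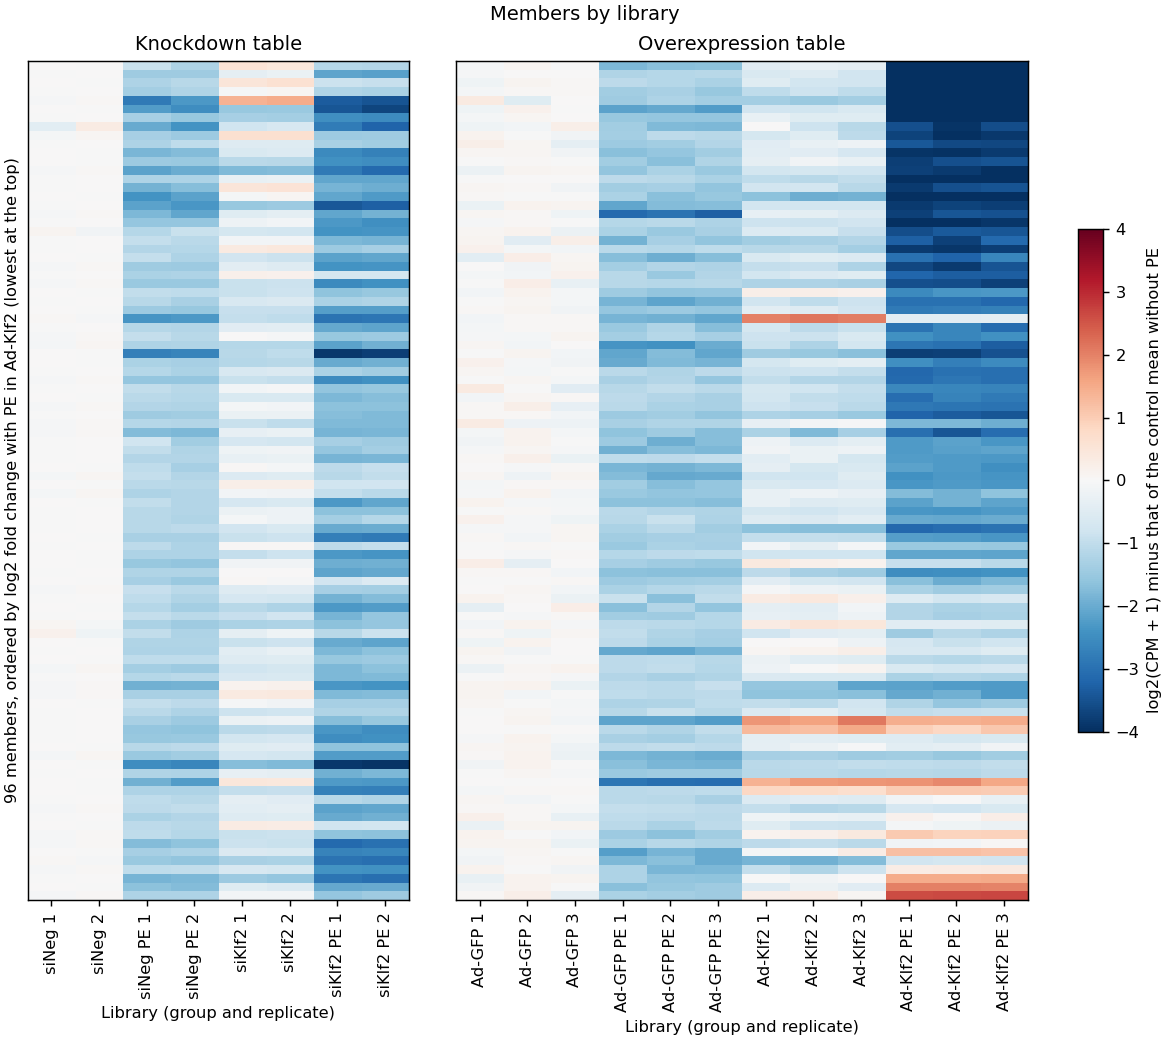
Level of each of the 96 members (rows) in each RNA library (columns), as log2(CPM + 1) minus that of the mean of the control without PE of the same experiment, with the colour scale ending at −4 and 4. Rows are ordered by the PE response in Ad-Klf2, and the libraries of Ad-Klf2 with PE run from far below the control at the top to above it at the bottom, whereas the mean of siKlf2 with PE is below the control for all 96 members.

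The first comparison asked whether the members still respond to PE after knockdown of KLF2. None of the siKlf2 libraries was used to choose the members. All 96 fell with PE in siKlf2 cells in edgeR's quasi-likelihood test at an adjusted p under 0.05, and 0 rose, where 23.7% of the 18173 genes tested fell and 24.4% rose. Among the 9091 genes with 10 CPM or more, 30.5% fell and 36.6% rose. By a fold of at least 1.5, 89 members fell, against 7.85% of all genes tested. The median log2 fold change of the members was -1.35 (quartiles -1.73 and -0.94), a level with PE of 39.1% of that without, against -0.02 over all genes tested. In all 96 members both siKlf2 libraries with PE were below both without it, as were 64.6% of the 9091 genes with 10 CPM or more. After TMM scaling, which corrects library totals for composition, this again held for all 96 members and for 40.4% of the 9091 genes.

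The size of the fall varied among members from -4.78 to -0.21 on the log2 scale. In CPM with 1 added, 74 members again reached a ratio of at most 0.5 in siKlf2, and 16 reached 0.25, whereas 2.22% of the 9091 genes reached 0.5. Set beside siNeg, where the members were chosen for their fall, the log2 fold change was more negative in siKlf2 for 50 members and less negative for 46. Of the 9091 genes with 10 CPM or more, 4761 had a lower log2 fold change in siKlf2 than in siNeg and 4330 a higher one. The median of the members was -1.19 in siNeg and -1.35 in siKlf2. Members with a larger fall in siNeg also tended to have a larger one in siKlf2, with a Spearman correlation of 0.532 and Pearson's r of 0.664 over 96 members. The arms share no library, and the points share the libraries of each arm.

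**Figure D2:**
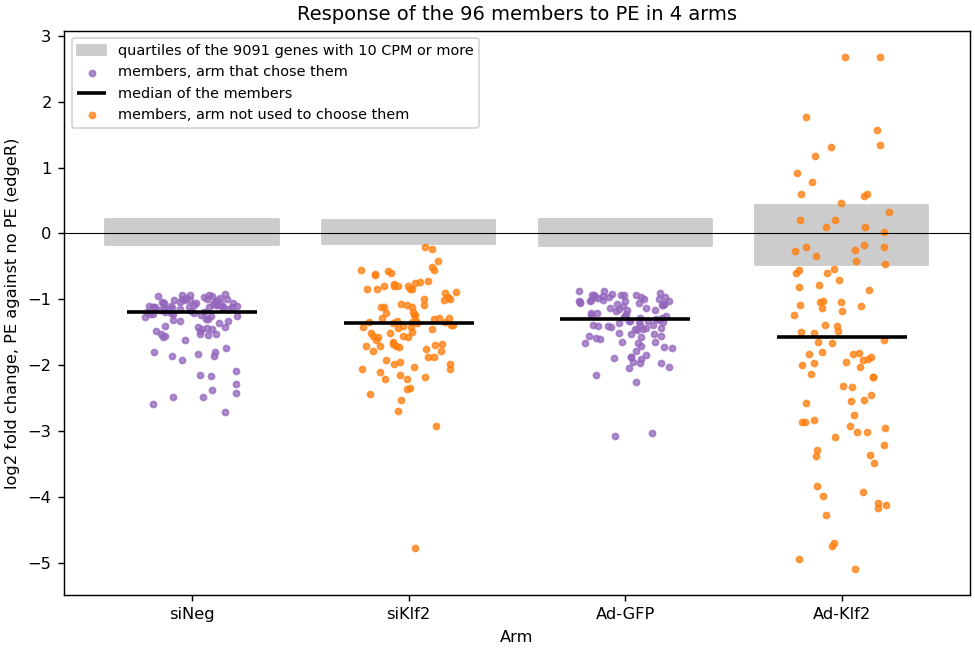
log2 fold change with PE of each member (points) in the 4 arms, with the members' median (black bars) and the quartiles of the 9091 genes with 10 CPM or more in both controls (grey). The members all lie below 0 in siKlf2, with a median of -1.35, and run from -5.10 to 2.68 in Ad-Klf2. The siNeg and Ad-GFP arms chose the members.

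The same question was asked for overexpression. None of the Ad-Klf2 libraries was used to choose the members, and here they diverged. With PE, 74 members fell, 16 rose and 6 did not pass the test in edgeR, whereas 29.6% of the 16153 genes tested fell and 31.6% rose. Among the 9091 genes with 10 CPM or more, 39.7% fell and 36.5% rose. A fall of at least 4-fold was found for 36 members, against 2.91% of all genes tested. Requiring a 1.5-fold change left 67 members that fell, against 18.2% of all genes, and 11 that rose, against 21.7%. The median log2 fold change of the members was -1.57 (quartiles -2.77 and -0.33), against -0.01 over all genes tested. The members' log2 fold changes had a standard deviation of 1.71 in Ad-Klf2, against 0.66 in siKlf2 and 0.42 in Ad-GFP, where the rule had cut the range from above. Over the 9091 genes with 10 CPM or more it was 0.89, 0.40 and 0.43, so the spread was wider in Ad-Klf2 there too.

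Judged by single libraries, the 3 Ad-Klf2 libraries with PE were all below the 3 without it for 78 members, and all above them for 13. Among the 9091 genes with 10 CPM or more, 54.3% were lower in this way and 28.8% higher. The libraries of the remaining 5 members overlapped. After TMM scaling 72 members were lower and 15 higher in this way, against 42.5% and 39.3% of the 9091 genes. By the ratio used to choose the members, 61 of the 96 again lay at or below 0.5 in Ad-Klf2, and 34 lay at or below 0.25, against 12.3% of the 9091 genes at 0.5. Between the log2 fold change in Ad-Klf2 and that in Ad-GFP, 49 members were lower in Ad-Klf2 and 47 higher. Of the 9091 genes with 10 CPM or more, 4973 were lower in Ad-Klf2 and 4118 higher. The difference in response between arms was not tested, because the Ad-GFP arm of it chose the members.

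**Figure D3:**
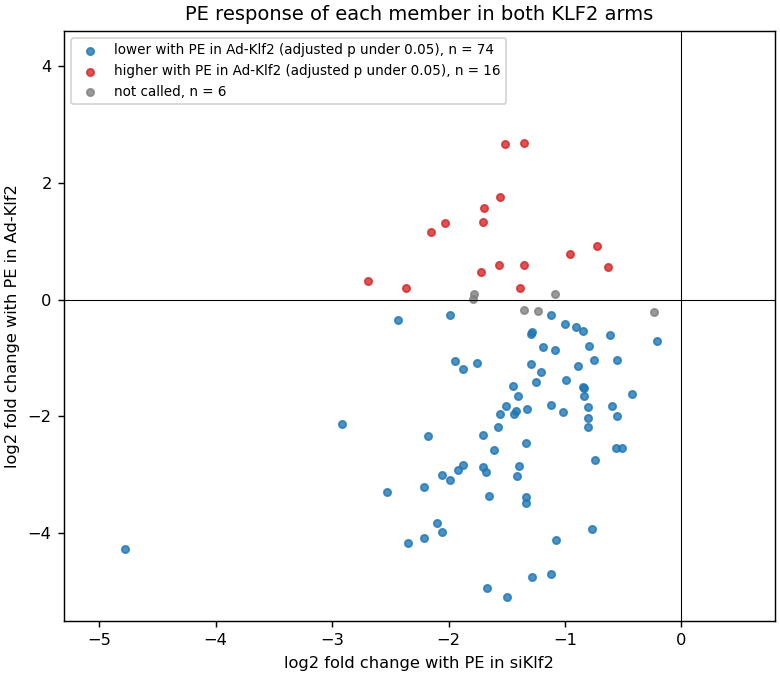
log2 fold change with PE in siKlf2 (horizontal axis) against that in Ad-Klf2 (vertical axis) for each member, coloured by the edgeR call in Ad-Klf2. In siKlf2 the 16 members that rose in Ad-Klf2 run from -2.69 to -0.63. They lie inside the wider range of the 74 that fell in Ad-Klf2, -4.78 to -0.21, and all 96 lie below 0 in siKlf2.

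The values of the other arms were set beside the direction in Ad-Klf2, with no test. Over the 96 members the log2 fold change with PE in Ad-Klf2 had a Spearman correlation of 0.131 with that in siKlf2 and of 0.159 with that in Ad-GFP, and of -0.03 with the level in Ad-GFP without PE. The 16 members that rose had a median log2 fold change with PE of -1.56 in siKlf2, and the 74 that fell had -1.33. In the control arms, which chose the members, the corresponding medians were -1.19 and -1.19 in siNeg and -1.38 and -1.29 in Ad-GFP. The members that rose had a median level of 48.4 CPM in siNeg without PE, against 33.3 CPM for those that fell, and a median log2 difference of siKlf2 from siNeg with PE of -0.68, against -0.32. The members that rose began at a median of 28 CPM in Ad-Klf2 without PE and reached 68.2 CPM with PE. Those that fell began at 29.1 CPM and reached 6.41 CPM. The starting levels of both were close. The levels with PE differ by construction, since the call that divides the members uses them.

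Of the 16 members that rose, 9 reached a mean in Ad-Klf2 with PE above their mean in Ad-GFP without PE, and 12 did so after TMM scaling. In 11 of the 16 the level in Ad-Klf2 without PE was below that in Ad-GFP without PE. Of the 74 members that fell, 64 had a lower mean in Ad-Klf2 with PE than in Ad-GFP with PE, and 68 had a lower mean in Ad-Klf2 than in Ad-GFP without PE. By library totals, 60.4% and 57.8% of the 9091 genes with 10 CPM or more were lower in these ways. For 36.3%, again by library totals, the mean in Ad-Klf2 with PE was above that in Ad-GFP without PE. That share stands beside the 9 members and not beside the 12 after TMM scaling. These counts are a description, since the call that divides the members uses their Ad-Klf2 levels. In Ad-Klf2 with PE 34 members were under 5 CPM and 5 under 1 CPM, against 7 and 0 in Ad-GFP with PE. Levels this low were not counted over the 9091 genes, so they are not shown to be particular to the members.

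The members followed library by library were the 2 with the most negative and the 2 with the most positive log2 fold change with PE in Ad-Klf2 among those called. They were picked after their values were seen, so their extreme position in that arm is given without a test, while their siKlf2 values had no part in the choice.

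ENSRNOG00000003537 lay at 67.6, 72.8 and 71.6 CPM in the Ad-Klf2 libraries and at 1.81, 2.36 and 1.42 CPM with PE, a log2 fold change of -5.10 (SE 0.124). The groups were far apart, and the level with PE was also far under the 25.5, 28.5 and 28.9 CPM of Ad-GFP with PE. Without PE the Ad-GFP libraries lay at 86.7, 100.3 and 89.5 CPM. In the knockdown experiment it went from 145.6 and 142.8 to 76.8 and 61.1 CPM with PE in siNeg, and from 210.6 and 199.5 to 65.4 and 63.4 CPM in siKlf2. The log2 fold change in siKlf2 was -1.50 (SE 0.071, edgeR adjusted p = 1.62e-08), from a level without PE above that of siNeg.

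ENSRNOG00000008423 lay at 95.2, 101.5 and 85.1 CPM in Ad-Klf2 and at 2.81, 2.74 and 2.43 CPM with PE, a log2 fold change of -4.95 (SE 0.093). In Ad-GFP it went from 140.3, 148.2 and 148.8 CPM to 62.6, 66.1 and 67.3 CPM, so the lowest library with PE there was far above all 3 of Ad-Klf2 with PE. In siNeg it went from 194.7 and 201.6 to 73.6 and 73.2 CPM, and in siKlf2 from 152.8 and 163.7 to 45.6 and 42.7 CPM. The fall in siKlf2 was -1.67 on the log2 scale (SE 0.046, edgeR adjusted p = 2.91e-10). In CPM its siKlf2 libraries lay below those of siNeg both without and with PE. After TMM scaling the log2 difference was -0.13 (SE 0.044) without PE and -0.47 (SE 0.046) with PE, and the first was -0.05 without siKlf2 replicate 1.

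ENSRNOG00000004603 moved the other way in Ad-Klf2, from 25, 25.9 and 22.4 CPM to 134.1, 136.9 and 139.3 CPM with PE, a log2 fold change of 2.68 (SE 0.115). In Ad-GFP it went from 21.8, 25 and 16.2 CPM to 8.06, 7.60 and 7.25 CPM. Without PE the libraries of Ad-GFP and Ad-Klf2 overlapped, and with PE those of Ad-Klf2 were all above every other library of the experiment. In siNeg it went from 17.1 and 18.2 to 6.86 and 6.84 CPM, and in siKlf2 from 16.4 and 16.2 to 5.40 and 5.92 CPM, a log2 change of -1.35 (SE 0.060), with an edgeR adjusted p of 9.49e-09. The siKlf2 libraries were below both siNeg libraries with PE, but the log2 difference after TMM scaling was -0.01 (SE 0.061).

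ENSRNOG00000059479 moved in the same direction, from 15.6, 19.9 and 16.8 CPM in Ad-Klf2 to 97.4, 97.8 and 95.8 CPM with PE, a log2 fold change of 2.67 (SE 0.104). In Ad-GFP it went from 21.1, 25.8 and 23.4 CPM to 6.59, 7.48 and 8.11 CPM. Only the Ad-Klf2 libraries with PE were above those of Ad-GFP without PE. In siNeg it went from 21.5 and 21.3 to 6.22 and 5.67 CPM, and in siKlf2 from 14.9 and 14 to 4.40 and 4.57 CPM, a log2 change of -1.51 (SE 0.057), with an edgeR adjusted p of 2.63e-09.

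The difference in PE response between Ad-Klf2 and Ad-GFP was -3.49 (SE 0.155) and -3.92 (SE 0.116) on the log2 scale for the first pair, and 4 (SE 0.168) and 4.20 (SE 0.15) for the second. The corresponding differences between siKlf2 and siNeg were -0.54 (SE 0.099), -0.34 (SE 0.064), -0.09 (SE 0.083) and 0.23 (SE 0.079). These are estimates without a test, since the control arms chose the members.

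**Figure D4:**
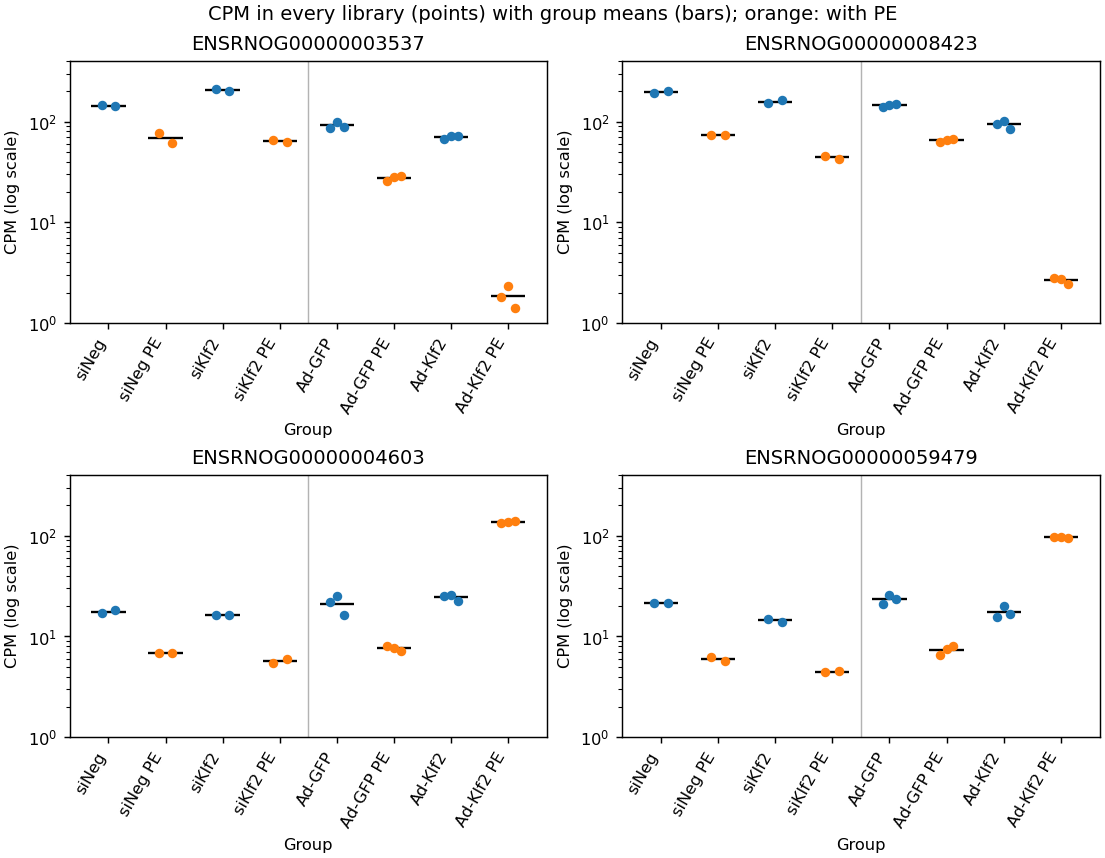
CPM on a log axis of the 4 followed members in each library (points; blue without PE, orange with PE), with group means as bars and the knockdown groups left of the grey line. In Ad-Klf2 with PE the upper pair lies under 3 CPM and the lower pair between 95.8 and 139.3 CPM, while all 4 are lower with PE in the other arms.

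The levels in KLF2-altered cells were then set beside the controls at the same state of PE. Here the controls had been chosen high without PE and low with PE, so the members' own counts are a description. Without PE, 61 members were called lower and 18 higher in siKlf2 than in siNeg, with a median log2 fold change of -0.33, where 26.8% and 27.2% of all genes tested were called and their median was -0.02. In Ad-Klf2 against Ad-GFP without PE, 69 were called lower and 8 higher, with a median of -0.57, where 15.1% and 20% of all genes were called and their median was 0.00. Among the 9091 genes with 10 CPM or more, 28.3% were called lower and 43.4% higher in siKlf2, and 22.5% and 22.5% in Ad-Klf2. By group means in CPM, 67 of the 96 were below the control without PE in both experiments and 1 was above it in both, against 40.2% and 13.6% of the 9091 genes. After TMM scaling these were 56 and 3 members, against 22.3% and 28.2%. By calls, 40 members were lower in both, and this joint call was not counted over all genes. With a fold of 1.5 or more, 30 were lower and 7 higher in siKlf2, against 11.5% and 5.83% of all genes, and 47 were lower and 5 higher in Ad-Klf2, against 5.06% and 10.7%.

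With PE, 61 members were called lower and 18 higher in siKlf2 than in siNeg, with a median of -0.40. Of all genes 28.2% and 26.1% were called, and of the 9091 genes with 10 CPM or more 30.6% and 40.7%. With a fold of 1.5 or more, 35 members were lower and 3 higher, against 11.4% and 6.52% of all genes. In Ad-Klf2 against Ad-GFP with PE, 58 were called lower and 28 higher, with a median of -0.70 and a range of -4.52 to 5.10. Of all genes 32.1% and 33.6% were called, and of the 9091 genes with 10 CPM or more 44.1% and 35.3%. With a fold of 1.5 or more, 51 members were lower and 25 higher, against 20.3% and 25.7% of all genes. By TMM-scaled group means, 43 members were below the control with PE in both experiments, against 23.2% of the 9091 genes. A further 28 were below it in siKlf2 and above it in Ad-Klf2, against 21.5%, 20 were the reverse, against 32.5%, and 5 were above it in both, against 22.8%. By library totals these 4 counts were 53, 31, 11 and 1, against 45.1%, 32.2%, 15.3% and 7.44%. By calls, 37 members were lower in both, 20 were lower in siKlf2 and higher in Ad-Klf2, and 12 were the reverse. Such joint calls were not counted over all genes, so these counts have no share to be read against.

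The order of the groups also depended on the scaling in the knockdown experiment. After TMM scaling siKlf2 with PE was the lowest of its 4 groups for 71 members and siNeg with PE for 25, against 26.3% and 20% of the 9091 genes. By library totals these were 84 and 12, against 58.9% and 10.1%. In the overexpression experiment, after TMM scaling, Ad-Klf2 with PE was the lowest group for 63 members, Ad-GFP with PE for 31 and Ad-Klf2 without PE for 2, against 43.8%, 19.2% and 14.1%. By library totals these were 64, 30 and 2, against 53.7%, 24.9% and 8.63%. Since the rule chose controls that were high without PE and low with it, these orders are a description.

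**Figure D5:**
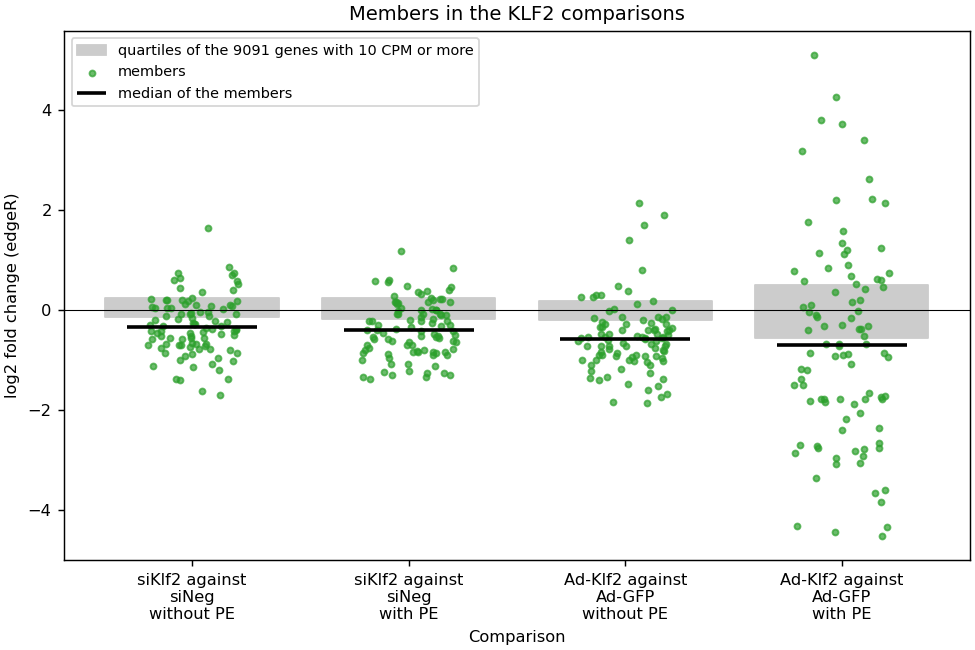
log2 fold change of each member (points) in the 4 comparisons of KLF2-altered with control cells, with the members' median (black bars) and the quartiles of the 9091 genes with 10 CPM or more in both controls (grey). The medians lie at -0.33, -0.40, -0.57 and -0.70, and the comparison of Ad-Klf2 with Ad-GFP with PE has the widest spread.

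To read these comparisons with controls that had no part in the choice, genes were also chosen from the ratio and the minimum of 1 experiment and followed in the other. The Ad-GFP values alone chose 258 genes. In siKlf2 against siNeg without PE, 156 of these (60.5%) were called lower and 51 (19.8%) higher, with a median of -0.29, against 26.8% and 27.2% of all genes tested. With PE, 143 (55.4%) were called lower and 53 (20.5%) higher, with a median of -0.24, against 28.2% and 26.1%. With PE in siKlf2, 238 of the 258 (92.2%) fell and 1 rose, against 23.7% and 24.4%. The siNeg values alone chose 162 genes. In Ad-Klf2 against Ad-GFP without PE, 95 of these (58.6%) were called lower and 29 (17.9%) higher, with a median of -0.49, against 15.1% and 20% of all genes tested. With PE, 91 (56.2%) were called lower and 51 (31.5%) higher, with a median of -0.61, against 32.1% and 33.6%. With PE in Ad-Klf2, 122 of the 162 (75.3%) fell and 33 (20.4%) rose, against 29.6% and 31.6%. Among the 9091 genes with 10 CPM or more in both controls, 28.3% were called lower and 43.4% higher in siKlf2 than in siNeg without PE. With PE these were 30.6% and 40.7%. In Ad-Klf2 against Ad-GFP they were 22.5% and 22.5% without PE, and 44.1% and 35.3% with PE. In response to PE, 30.5% of the 9091 fell and 36.6% rose in siKlf2, and 39.7% and 36.5% in Ad-Klf2. For both lists the directions were those seen for the 96 members, which both contain, and the lists' medians were smaller in size.

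The rule scaled by library totals, whereas the tests used TMM factors, which ranged from 1.12 to 1.13 in siNeg down to 0.870 to 0.871 in siKlf2 with PE, and from 1.07 to 1.08 in Ad-GFP to 0.904 to 0.929 in Ad-Klf2 with PE. With totals alone the median of all genes tested moved to -0.19 for PE in siKlf2 and to -0.21 for PE in Ad-Klf2. The share of higher calls among all called genes then fell from 50.8% to 23.6% for PE in siKlf2 and from 51.7% to 39.2% for PE in Ad-Klf2. For siKlf2 against siNeg it went from 50.3% to 21.9% without PE and from 48.1% to 15.9% with PE. With TMM-scaled CPM in the rule, 57 of the 96 members remained. Of these 57, all fell with PE in siKlf2, and 45 fell and 9 rose with PE in Ad-Klf2.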

How the data were processed

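The authors deposited 2 tables of raw counts per Ensembl gene ID, made with Trim Galore, STAR and featureCounts on the rat build mRatBN7.2, per the submitters' processing notes, with no versions given. Library preparation started from 400 ng of RNA, per the labels' protocols. Of counts from 1 to 20, 59.8% to 66.6% were even numbers in a knockdown library and 72.1% to 82.2% in an overexpression library, and the cause was not tested. The members and lists were chosen with earlier results of these data known.

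CPM for the rule and for levels is the count divided by the library total, times 1000000. Each table was fitted with edgeR 4.0.16 (R 4.3.3), with filterByExpr (minimum count 10, minimum total 15), TMM factors and 1 quasi-likelihood fit of all 4 groups. This left 18173 and 16153 genes, including all 96 members in both. Tests were two-sided, and a gene was called where its Benjamini-Hochberg adjusted p over all genes tested was under 0.05. The procedure was tested on simulated data, which did not hold the differences in composition between groups seen here, so the choice of scaling was not tested. DESeq2 1.42.0 and the other alternatives of the closing section were tried. Tables and figures used Python 3.11.15, pandas 2.3.3 and matplotlib 3.10.9.

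Of the IDs, 0 matched the RefSeq table, so the gene lists, cell type markers, promoter motifs and CUT&Tag peaks planned for were not used here. The rule for named genes was cut to 4 IDs: the 2 largest rises and 2 largest falls with PE in Ad-Klf2 among called members.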

Additional observations from a re-analysis of the deposited data

Results flagged for a closer look

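For 13 members PE moved the libraries of both overexpression arms in opposite directions, with all 3 Ad-GFP libraries lower and all 3 Ad-Klf2 libraries higher with PE. They are 13.5% of the members. Of the 9091 genes with 10 CPM or more, 877 (9.65%) showed both directions, and 28.8% had all 3 Ad-Klf2 libraries higher with PE. That 9.65% is not a like share, since all 96 members, chosen for their fall, had the Ad-GFP direction. Only 3518 of the 9091 genes had it, and the 877 are a larger part of these than 13.5%. After TMM scaling the count of members was 15. The difference between arms was not tested, and the Ad-GFP direction was fixed by the choice of members. All 13 were called higher in Ad-Klf2 in edgeR, and 8 of them had a mean in Ad-Klf2 with PE above that in Ad-GFP without PE. Among them, ENSRNOG00000004603 had log2 fold changes with PE of 2.68 in Ad-Klf2 and -1.32 in Ad-GFP, and ENSRNOG00000059479 had 2.67 and -1.53.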

How the results depend on the processing

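The number of members, 96, was 26 with a ratio of 0.4 or less, 489 with 0.67 or less and 57 with TMM-scaled CPM, and 85 to 104 when a control library was left out. Counts of members called for PE in siKlf2 and in Ad-Klf2 stayed within 1.5 times of the main count under RLE factors, library totals, no filter, DESeq2, the replicate block, fits of 2 groups, a minimum fold of 1.5 and halved counts. They were 95 to 96 lower in siKlf2, and 72 to 76 lower and 13 to 16 higher in Ad-Klf2, when a library was left out. The comparisons with controls then gave 54 to 62 lower and 14 to 21 higher in siKlf2 without PE, 58 to 65 and 12 to 22 with PE, 63 to 69 and 7 to 9 in Ad-Klf2 without PE, and 56 to 58 and 28 to 30 with PE. With library totals alone, 7 rather than 18 members were called higher in siKlf2 than in siNeg with PE. A minimum fold of 1.5, halved counts and the lists chosen on 1 experiment were added after the data were seen. With that fold, siKlf2 against siNeg gave 30 lower and 7 higher without PE and 35 lower and 3 higher with PE, and Ad-Klf2 against Ad-GFP without PE gave 5 higher.

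The labels do not say whether same-numbered libraries are paired. Deviations from group means correlated between -0.33 and 0.34 across same-numbered knockdown libraries, and between -0.26 and 0.18 for overexpression. With so few libraries per group these values cannot decide whether the libraries are paired. The replicate block moved no count of members by over 1.5 times. For ENSRNOG00000003537 in siKlf2 against siNeg with PE, the log2 difference of 0.17 (edgeR adjusted p = 0.0642) became a call with the block (0.17, edgeR adjusted p = 0.0214), with RLE factors (0.20) and with no filter (0.17). It was 0.32 and called without siNeg PE replicate 1, 0.03 without siNeg PE replicate 2, 0.19 and called without siKlf2 replicate 1, and -0.10 with library totals. For ENSRNOG00000004603 the difference between siKlf2 and siNeg changed sign, to -0.11 without PE with library totals, and with PE from -0.01 to 0.0164 with RLE factors, 0.0168 with DESeq2 and 0.0111 with 2 groups, and was -0.0531 to 0.0745 when a library was left out. With PE it was -0.27 and called lower with library totals. For ENSRNOG00000008423 without PE, the difference of -0.13 was no longer called with RLE factors (-0.11), with DESeq2 (-0.105) or without any of 5 libraries (-0.15 to -0.05 among these). Group orders after TMM scaling were added after the data were seen. The cause was not tested. Alternatives for peaks near members were not run.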
